A study of Mus musculus with 2 samples.

Results

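The 6 genes described here encode adhesion receptors and matrix proteins of taste epithelium: Epcam, Cdh1, Cd44, Cadm1, Edil3 and Col4a4. They are 6 of 21888 genes listed in the single-cell count tables of the fungiform papillae (FP) and the circumvallate papilla (CV), and all 6 are listed in both tables. They were picked by name, with their levels in these cells already known, so the levels below are a description and no test of them was made. The cells came from adult α-gustducin-GFP mice on a C57BL/6J background, in which green fluorescent protein marks cells with α-gustducin, the product of Gnat3 and a G protein subunit of taste transduction. FP cells were taken from the front of the tongue and CV cells from its back, freed with dispase, elastase and TrypLE, and sorted as live, single, fluorescent cells. No other treatment or allele is given for either group, and the number of mice in each is not stated in the sources used here. There was 1 library per papilla, so the cells of a papilla share a library and no replicate check or test of a difference between papillae was possible.

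Values were compared over 21 FP taste cells, 32 CV taste cells and 7 FP keratin barcodes, out of 29 FP and 61 CV barcodes. A taste cell had more than 500 genes and Gnat3 above 0.9 on the scale ln(1 + counts per 10000). A keratin barcode was an FP barcode with Krt13 plus Krt6a, keratins of the lingual surface epithelium, at 1000 CPM or more, CPM being counts scaled to the total of the barcode or group. The lowest Gnat3 value inside the limit was 1.56 in FP and 1.01 in CV, and the highest outside it was 0.515 in FP and 0.486 in CV. The lowest Krt13 plus Krt6a level inside its limit was 28252 CPM and the highest outside was 191 CPM. The FP taste cells summed to 22646953 counts (193718 to 3190340 per cell), the CV taste cells to 29535917 (32726 to 3447628) and the keratin barcodes to 11918186 (201535 to 4078945). No barcode was shared by the libraries, and 5 CV taste cells had barcode numbers within 4 of another.

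The label of sorted taste cells was checked against 7 type II taste cell markers, Gnat3, Trpm5, Plcb2, Itpr3, Gng13, Pou2f3 and Tas1r3. Their summed level was 3228 to 19008 CPM in FP taste cells and 251 to 24125 CPM in CV taste cells, against 39.3 to 122 CPM in the keratin barcodes. Gnat3 was part of the rule that formed the groups, so this split is partly set by the rule. Of markers outside the rule, Trpm5 stood at 1952 CPM in FP taste cells, 1783 CPM in CV taste cells and 5.20 CPM in keratin barcodes. Plcb2 stood at 2930, 2129 and 11.5 CPM in the same order, and Gng13 at 3334, 3561 and 13.5 CPM. On these markers the keratin barcodes went against the label of the sort. They held 13 of 16 keratinocyte markers at 50 CPM or more in at least 1 barcode. Krt13 and Krt6a, which the rule used, are on that list. Every FP taste cell held Krt13 plus Krt6a at 64.4 to 191 CPM, whereas CV taste cells held 0 to 15.9 CPM. Of 5 listed immune markers, Ptprc, Cd74 and Fcer1g were at 0 in all 3 groups. Lyz2 had 210 counts in CV taste cells, up to 180 CPM and on in 1 cell, and Cd3e had 154, up to 49.9 CPM, against 0 and 5 counts in FP taste cells.

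Taste buds are clusters of elongated cells set in a stratified epithelium, and their cells must hold to each other, seal the apical pore and rest on a basement membrane. Cdh1 encodes E-cadherin, the calcium-dependent receptor of adherens junctions, and Epcam encodes an epithelial adhesion protein that binds claudin-7. Cd44 encodes the main cell-surface receptor for hyaluronan, and Cadm1 encodes an immunoglobulin-family adhesion receptor of epithelia and synapses. Edil3 encodes a secreted matrix protein with an RGD motif that binds integrins of the αv family, and Col4a4 encodes a chain of type IV collagen that assembles with the chains of Col4a3 and Col4a5 in basement membranes. In RefSeq on mouse build GRCm38.p6 all 6 are protein-coding: Epcam at chr17:87635979-87651127, Cdh1 at chr8:106603350-106670247, Cadm1 at chr9:47530170-47862280 and Edil3 at chr13:88821472-89323225 on the plus strand, Cd44 at chr2:102811141-102901669 and Col4a4 at chr1:82448419-82587034 on the minus strand.

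In FP taste cells every cell with Cd44 on had Epcam on, as described below, and the 250 bases upstream of the start that the promoter table uses are shown for both genes for that reason. They come from the RefSeq promoter table for mouse build GRCm38.p6 (mm10), which holds 3 of the 6 genes. The Cd44 stretch lies at chr2:102901666-102901915 on the minus strand and the Epcam stretch at chr17:87635729-87635978 on the plus strand, each given 5′ to 3′ along its gene. The last 4 bases of the Cd44 stretch lie inside the gene span given above.
Cd44: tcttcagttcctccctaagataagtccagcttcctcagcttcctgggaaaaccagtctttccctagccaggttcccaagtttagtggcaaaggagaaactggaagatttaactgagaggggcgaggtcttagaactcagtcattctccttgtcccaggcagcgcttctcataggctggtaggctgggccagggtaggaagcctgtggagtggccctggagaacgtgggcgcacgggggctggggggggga
Epcam: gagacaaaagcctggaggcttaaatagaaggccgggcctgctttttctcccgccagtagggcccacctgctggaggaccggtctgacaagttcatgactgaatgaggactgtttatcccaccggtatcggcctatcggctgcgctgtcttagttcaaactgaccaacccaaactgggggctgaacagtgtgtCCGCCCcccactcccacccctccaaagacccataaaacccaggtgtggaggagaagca
The capitals mark the one match to the GC box GGGCGG, read on the opposite strand. Both strands were searched for 3 motifs, the GC box, the TATA box TATAAA and the E-box CANNTG. The Epcam stretch held 1 GC box, 0 TATA boxes and 2 E-boxes, and the Cd44 stretch held 0 of each. Among the 250-base stretches upstream of 32851 promoters in that table, 32.7% held a GC box, 12.4% a TATA box and 66.2% an E-box. Both stretches were 56.4% G and C, against a median of 52.4% in the table.

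Epcam was found in most taste cells of both papillae and in few keratin barcodes. Pooled over cells it stood at 886 CPM in FP taste cells (95% interval 874 to 898), 1213 CPM in CV taste cells (1201 to 1226) and 109 CPM in keratin barcodes (103 to 115). All intervals here cover counting error only and would be too narrow if PCR copies were counted. Single FP taste cells spanned 0 to 2560 CPM with a median of 766, single CV taste cells 0 to 2540 with a median of 828, and keratin barcodes 0 to 396 with a median of 4.76. The 2 papillae overlapped over nearly their whole range, while 6 of 7 keratin barcodes lay at 6.53 CPM or less. At 50 CPM or more, the level taken here as on, Epcam was on in 17 of 21 FP taste cells, 22 of 32 CV taste cells and 1 of 7 keratin barcodes. FP taste cells stood at 0.730 of the CV level (interval 0.717 to 0.743). They were 8.11-fold above the keratin barcodes (7.67 to 8.59), and CV taste cells were 11.1-fold above them (10.5 to 11.8).

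Cdh1 was counted in every FP taste cell and in part of the CV taste cells. It had 421 CPM in FP taste cells (412 to 429), 166 CPM in CV taste cells (162 to 171) and 151 CPM in keratin barcodes (144 to 158). Every FP taste cell had at least 1 Cdh1 count, from 0.955 to 1891 CPM with a median of 345. The FP levels of 0.955, 3.48 and 4.73 CPM were single counts. Of 32 CV taste cells 10 had none, and over the 32 the median was 9.16 and the highest value 850 CPM. Those 10 cells had totals of 51285 to 377533 counts, whereas the shallowest FP taste cell had 193718. Keratin barcodes ran from 0 to 245 CPM with a median of 99.2. Cdh1 was on in 17 of 21 FP taste cells, 12 of 32 CV taste cells and 4 of 7 keratin barcodes. The 12 CV taste cells included barcodes of 32726 and 42809 counts, on from 2 and 3 Cdh1 counts. Of the 22 CV taste cells at least as deep as the shallowest FP taste cell, 9 had Cdh1 on. The pooled level was 2.53-fold higher in FP than in CV taste cells (2.45 to 2.62) and 2.79-fold higher in FP taste cells than in keratin barcodes (2.66 to 2.94). CV taste cells and keratin barcodes differed by 1.10-fold (1.05 to 1.17).

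Cd44 differed most between the papillae of the 4 adhesion receptors. Its pooled level was 591 CPM in FP taste cells (581 to 601), 45.7 CPM in CV taste cells (43.3 to 48.2) and 430 CPM in keratin barcodes (419 to 442). Single FP taste cells ran from 0 to 2466 CPM with a median of 310, and CV taste cells from 0 to 323 with a median of 0. Cd44 was on in 13 of 21 FP taste cells, 3 of 32 CV taste cells and 4 of 7 keratin barcodes. The ranges overlapped, because 4 FP taste cells had no Cd44 count and 3 CV taste cells had 187, 222 and 323 CPM. Those 3 cells held 98.9% of all Cd44 counts of the CV taste cells. The pooled level was 12.9-fold higher in FP than in CV taste cells (12.2 to 13.7), and 99.9% of measured genes had a lower ratio of FP over CV. Pooled Cd44 was 1.37-fold higher in FP taste cells than in keratin barcodes (1.33 to 1.42), while CV taste cells stood at 0.106 of the keratin barcodes (0.100 to 0.113). One keratin barcode held 53.3% of the Cd44 counts of its group. With only the 3 keratin barcodes that had Krt76 and Lor at 1000 CPM or more, the direction for CV turned, from a log2 ratio of -2.98 to 2.18. Over all genes the median log2 ratio of CV taste cells over those 3 barcodes was 1.98, against 1.02 with all 7.

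Because Cd44 was also found in keratin barcodes, keratin levels were set beside it. The 13 FP taste cells with Cd44 on had keratinocyte markers summing to 292 to 1683 CPM, and the 8 with Cd44 off had 336 to 5317 CPM. Single FP taste cells held at most 191 CPM of Krt13 plus Krt6a and single keratin barcodes at least 28252 CPM. That split was made by the 1000 CPM limit that formed the groups. Pooled Cd44 stood at 591 CPM in FP taste cells and 430 CPM in keratin barcodes. The part of keratinocyte RNA in the Cd44 level of FP was not tested. The 3 Cd44 cells of CV included 1 cell with the type I taste cell markers Entpd2 and Gad2 on and 1 cell with the myeloid marker Lyz2 on. Among the other 29 CV taste cells, 1 had a type I marker on and 0 had an immune marker on. Type III markers (Otop1 or Ncam1) were on in 2 of the 3 Cd44 cells and basal or progenitor markers (Lgr5 or Sox2) in 2 of the 3, against 5 and 3 of the 29 others. The part of such cells in the Cd44 level of CV was not tested.

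Cadm1 was found in few cells of either papilla. It had 25.8 CPM in FP taste cells (23.7 to 28.0), 18.0 CPM in CV taste cells (16.5 to 19.6) and 1.85 CPM in keratin barcodes (1.16 to 2.79). It was on in 3 of 21 FP taste cells, at 238, 141 and 63.1 CPM, in 3 of 32 CV taste cells, at 203, 76.2 and 54.8 CPM, and in 0 of 7 keratin barcodes, whose highest value was 6.25 CPM. With 0 of 7 barcodes on, 3 barcodes as the limit allow a share of up to 42.9% (exact binomial 95% interval up to 41.0%), for counting error within this library only. The median was 0 in all 3 groups, and the 3 highest cells held 96.1% of the FP counts and 91.5% of the CV counts. The pooled ratio of FP over CV was 1.43 (1.27 to 1.62), and it rests on those few cells. FP taste cells were 14.0-fold above keratin barcodes (9.14 to 22.5), and CV taste cells 9.74-fold above them (6.37 to 15.7).

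**Figure D1:**
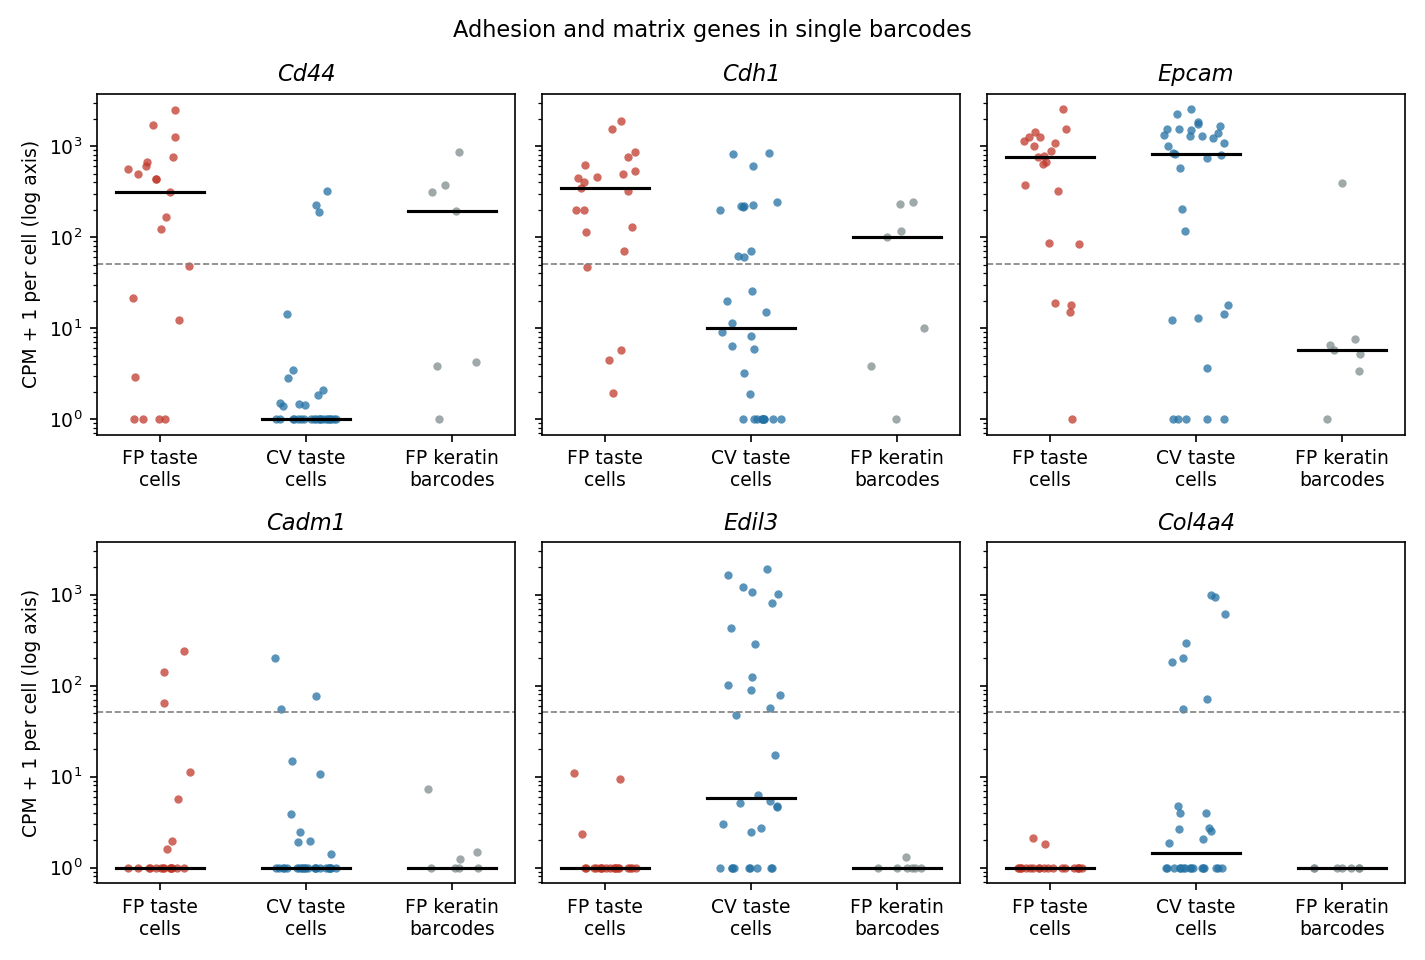
CPM + 1 of the 6 genes in single barcodes on a log axis, with FP taste cells (21), CV taste cells (32) and FP keratin barcodes (7) from left to right. Each point is a barcode, black bars are medians and the dashed line marks 50 CPM; the Cd44 points of FP reach 2466 CPM, and no FP point of Edil3 or Col4a4 passes 10.1 CPM.

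Edil3, the secreted integrin ligand, was found in CV taste cells and was near 0 elsewhere. FP taste cells held 23 Edil3 counts in all, or 1.02 CPM (0.644 to 1.52), CV taste cells 15399 counts, or 521 CPM (513 to 530), and keratin barcodes 1 count, or 0.0839 CPM. The highest FP cell reached 10.1 CPM and the highest CV cell 1892 CPM, with medians of 0 CPM over FP cells and 4.88 CPM over CV cells. Edil3 was on in 0 of 21 FP taste cells, 13 of 32 CV taste cells and 0 of 7 keratin barcodes. With 0 of 21 FP cells on, 3 cells as the limit allow a share of up to 14.3% (exact binomial 95% interval up to 16.1%), for counting error within this library only. The pooled level was 513-fold lower in FP than in CV taste cells (342 to 810). At least 1 Edil3 count was found in 3 of 21 FP taste cells, 23 of 32 CV taste cells and 1 of 7 keratin barcodes. The 3 FP taste cells had 17, 4 and 2 counts.

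Col4a4, the type IV collagen chain, followed the same split in fewer cells. FP taste cells held 2 Col4a4 counts, or 0.0883 CPM (0.0107 to 0.319), CV taste cells 5651 counts, or 191 CPM (186 to 196), and keratin barcodes 0 counts. The pooled level was 2166-fold lower in FP than in CV taste cells, with a counting interval of 599 to 17894 that the 2 FP counts leave wide. CV taste cells were at least 760-fold higher than keratin barcodes, taking 3 counts over all 7 barcodes as the floor, and the exact 95% interval of that ratio begins lower, at 618. Col4a4 was on in 8 of 32 CV taste cells and in 0 of the FP taste cells and keratin barcodes. The CV cells split into 2 ranges, with 8 cells at 54.0 to 994 CPM and the other 24 at 3.77 CPM or less.

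Edil3 and Col4a4 overlapped in CV cells. Of 13 Edil3 cells 7 had Col4a4 on, which is 53.8% of the Edil3 cells and 87.5% of the 8 Col4a4 cells. In 6 of these 7 cells Edil3 stood at 811 to 1892 CPM and Col4a4 at 182 to 994 CPM. The 7th had 425 CPM of Edil3 and 54.0 CPM of Col4a4. The one Col4a4 cell without Edil3 on was a shallow barcode of 42809 counts, where 3 Col4a4 counts made 70.1 CPM and Edil3 stood at 46.7 CPM. Ribosomal RNA made up 79.0% of the counts of that barcode. The other 6 Edil3 cells, at 56.5 to 284 CPM of Edil3, had Col4a4 at 3.03 CPM or less. Across the 32 CV taste cells the correlation of log2(CPM + 10) between the genes was 0.84. It was 0.84 over the 22 CV taste cells at least as deep as the shallowest FP taste cell and 0.88 over the 16 with 500000 counts or more. These cells share 1 library, and Edil3 itself followed total counts with r = 0.55 over the 32 cells and 0.31 over the 22.

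All 8 Col4a4 cells had at least 1 bitter receptor gene (Tas2r) on, and so did 20 of the 24 cells with Col4a4 off. The median was 9.5 receptors on in the 8 cells, against 4 in the 24. The Col4a4 cells were also deeper, with a median of 1800800 counts against 353904. Pecam1 or Tek, endothelial markers, were on in 4 of the 8 against 2 of the 24, the fibroblast marker Pdgfra in 3 of the 8 against 1 of the 24, and Sox2 in 3 of the 8 against Lgr5 or Sox2 in 2 of the 24. Keratinocyte markers had a median sum of 440 CPM in the 8 cells against 29.6 CPM in the 24. Of the 16 markers listed, only Klf4 and Lypd3 were on in any of the 8. In the 24, Krt84, Sbsn, Sprr1a, Klf4, Lypd3 and Crct1 were each on in some cell. Krt6b, Krt16 and Krt76 were at 0 in CV taste cells. The part of depth and of these markers in the Col4a4 level was not tested. The 13 Edil3 cells had a median of 8 receptors on, against 2 in the 19 others. Tas1r3, a subunit of the sweet and umami receptors, was on in 2 of 13 Edil3 cells and in 5 of 19 others. The Edil3 cells were the deeper ones, with a median of 1823119 counts against 167199 in the others. The part of depth in the number of receptors on was not tested. All 13 kept a type II marker sum of 6019 CPM or more.

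Markers of other cells moved with Edil3 in part. Of the 13 Edil3 cells 4 had the endothelial markers Pecam1 or Tek on, against 2 of 19 others, and 4 had the fibroblast marker Pdgfra on, against 0 of 19. Summed levels ran from 0 to 480 CPM in the 13 cells and from 0 to 322 CPM in the 19 others for 3 listed endothelial markers. For 5 listed fibroblast markers they ran from 0 to 468 CPM and from 0 to 15.5 CPM. Col1a2, Col3a1 and Dcn were at 0 in CV taste cells. Keratinocyte markers (Krt84, Klf4, Lypd3 or Crct1) were on in 10 of the 13, with a median sum of 424 CPM. In the others they (Krt84, Sbsn, Sprr1a, Klf4 or Lypd3) were on in 7 of 19, with a median sum of 15.9 CPM. Of type III markers, Syt1 was on in 4 of the 13, with a median sum of 18.0 CPM over the list, against Otop1 or Ncam1 in 3 of 19 and a median of 0. Sox2 was on in 3 of the 13, against Lgr5 or Sox2 in 2 of 19. The melanocyte marker Tyr was on in 1 of the 13 and 1 of the 19. Type I markers were on in 0 of the 13 and 2 of the 19, and immune markers in 0 and 1. The part of these markers in the Edil3 level was not tested.

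**Figure D2:**
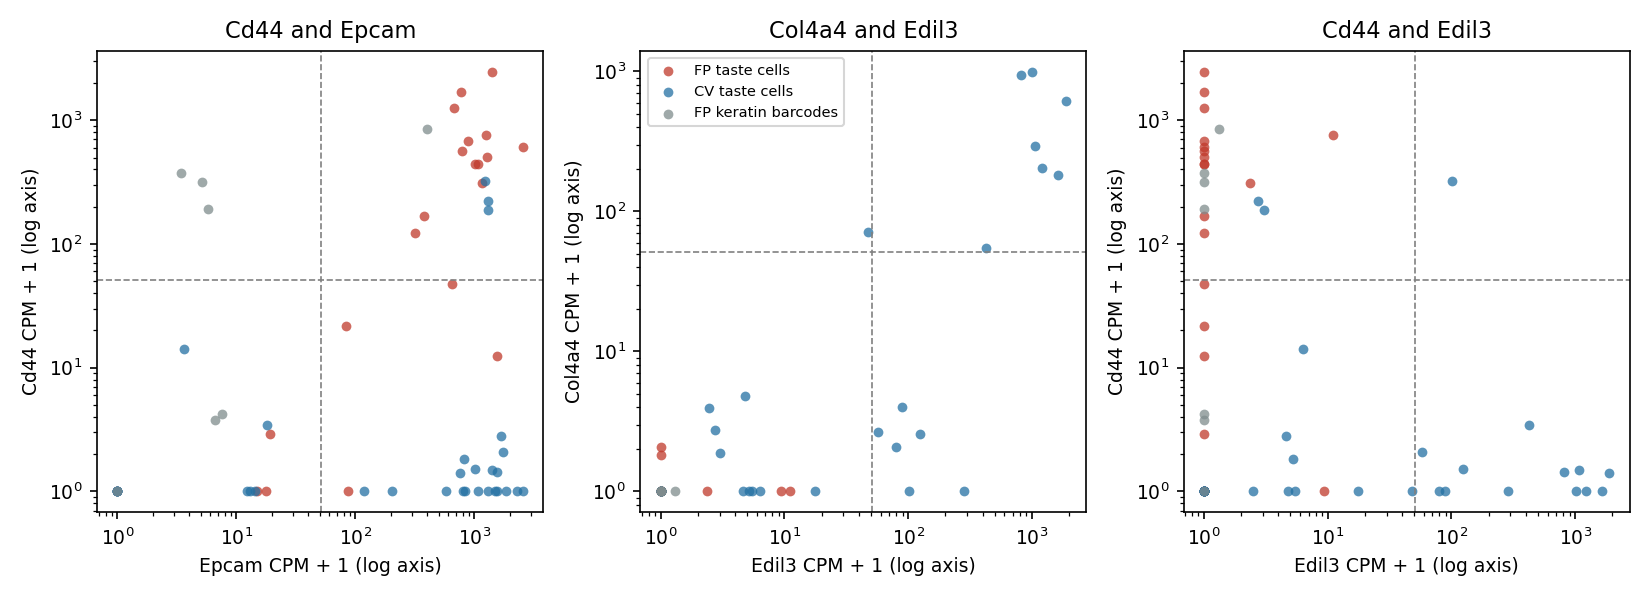
CPM + 1 of gene pairs in single barcodes on log axes, coloured by FP taste cells, CV taste cells and FP keratin barcodes, with dashed lines at 50 CPM. In the left panel all 13 FP cells above the Cd44 line are also above the Epcam line, in the middle panel 7 CV cells are above both the Edil3 and the Col4a4 lines, and in the right panel 1 cell is above both the Cd44 and the Edil3 lines.

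In FP taste cells Cd44 kept company with Epcam. All 13 Cd44 cells had Epcam on, and 4 of the 17 Epcam cells had Cd44 off. Those 4 had Epcam at 1561, 642, 85.6 and 82.6 CPM, beside Cd44 at 11.4, 46.7, 0 and 20.6 CPM, and the first of them was the second highest FP cell for Epcam. The correlation of log2(CPM + 10) was 0.81 over 21 cells and 0.83 over the 16 with 500000 counts or more. Both genes followed total counts over the 21 cells, with r = 0.68 for Cd44 and 0.60 for Epcam, and less over the 16, with 0.32 and 0.29. Cdh1 and Epcam had r = 0.66 over 21 cells and 0.46 over the 16. Cd44 and Cdh1 were on together in 12 cells. In CV taste cells the Cd44 and Epcam levels had r = 0.20, though all 3 Cd44 cells had Epcam on.

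The FP cells with and without Cd44 differed in other ways. Tas1r3 was on in 7 of 13 cells with Cd44 on, at 109 to 625 CPM, and in 1 of 8 with Cd44 off, so that 7 of the 8 Tas1r3 cells of FP had Cd44 on. A bitter receptor was on in 7 of 13 and in 6 of 8. The 13 cells with Cd44 on had a median of 1255078 counts and 10.9% mitochondrial counts, against 382184 counts and 29.1% in the 8 with Cd44 off, which were thus the shallower ones. One of the 8 had 1391768 counts, with 452.7 CPM of Cdh1, 642 CPM of Epcam, 141 CPM of Cadm1, 483 CPM of Tas1r3 and 46.7 CPM of Cd44. The 3 Cadm1 cells of FP all had Tas1r3, Cdh1, Epcam and Dsg2 on, and 2 of the 3 had Cd44 on. Of all 21 FP taste cells, Tas1r3 was on in 8, Cdh1 and Epcam each in 17, Dsg2 in 16 and Cd44 in 13. In CV, 1 of 3 Cadm1 cells had Tas1r3 on, 2 had Edil3 on and 0 had Col4a4 on.

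With 3 Cd44 cells in CV, overlap with the matrix genes could not be told from their base share. Of the 3 cells 1 had Edil3 on, at 101 CPM, against 13 of all 32 CV taste cells, and 0 had Col4a4 on, against 8 of 32. All 3 had bitter receptors on, from 4 to 8 each, against 28 of all 32 CV taste cells with at least 1 on. Cdh1 was on in 6 of the 13 Edil3 cells and in 6 of the 8 Col4a4 cells. Epcam was on in 12 of 13 Edil3 cells. Per cell, FP taste cells most often had 3 of the 6 genes on (11 of 21 cells), and 3 had none. CV taste cells were spread, with 7 having none, 7 having 1, 6 each having 2, 3 and 4.

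**Figure D3:**
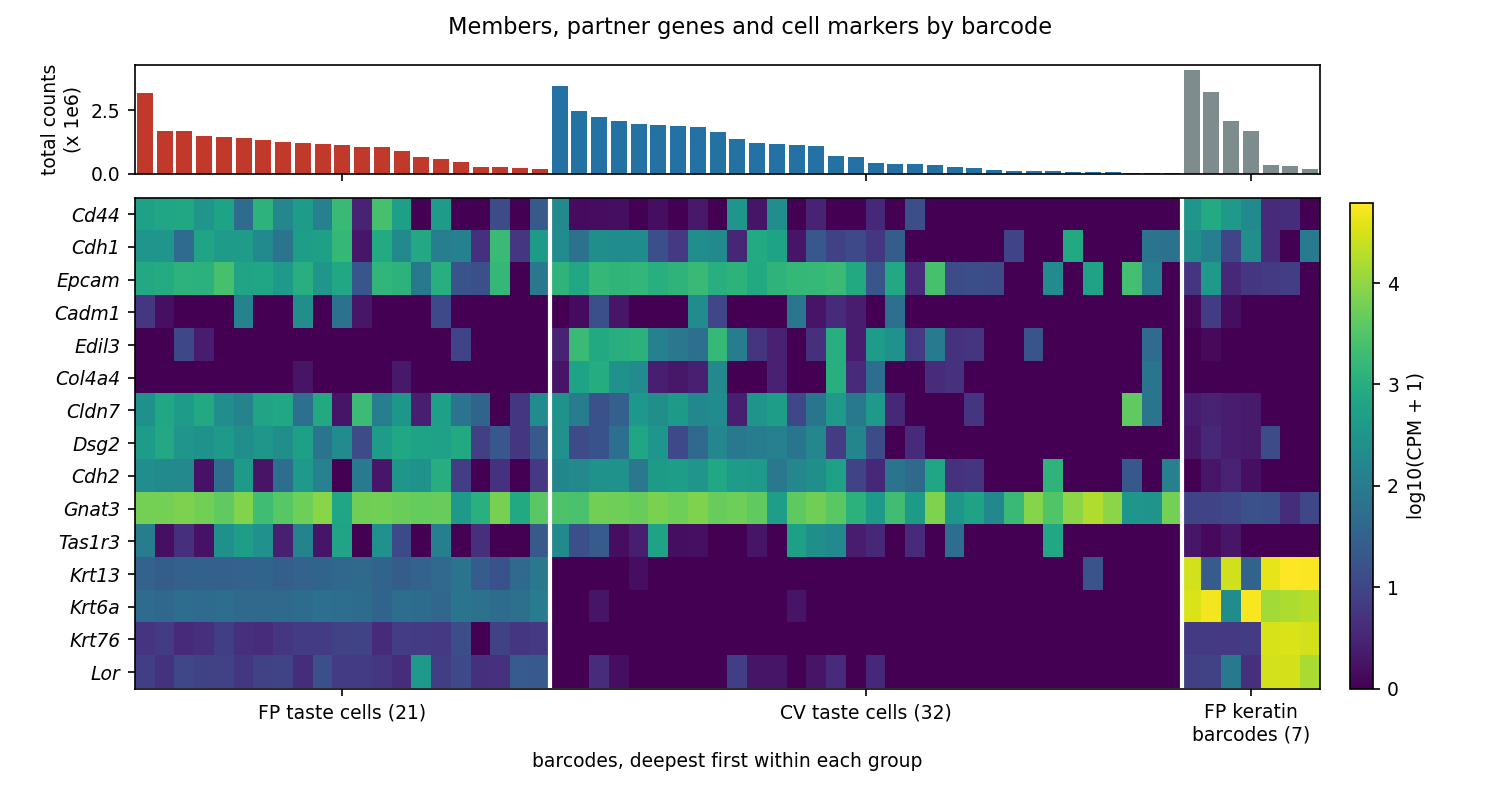
Colour shows log10(CPM + 1) of the 6 genes, 3 partner genes, Gnat3, Tas1r3 and 4 keratinocyte genes in each barcode, with total counts in bars above; barcodes run deepest first within FP taste cells (21), CV taste cells (32) and FP keratin barcodes (7). Edil3 and Col4a4 colour CV columns, and Cd44 colours FP and keratin columns.

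The keratin barcodes were not alike. The 3 with Krt76 and Lor at 1000 CPM or more, genes of the cornifying tongue surface, had Cd44 at 0 to 3.26 CPM, Cdh1 at 0 to 99.2 CPM and Epcam at 0 to 6.53 CPM. The other 4 had Cd44 at 192 to 854 CPM and Cdh1 at 9.07 to 245 CPM. They were also deeper, at 1679949 to 4078945 counts against 201535 to 356319. One of the 4, with 52537 CPM of Krt6a and 22.8 CPM of Krt13, had both the highest Cd44 level, 854 CPM, and the only Epcam above 50 CPM, 396 CPM. That barcode held 97.4% of the Epcam counts of the group, so the pooled keratin level of Epcam rests on it. Another of the 4 had 1382 CPM of the fibroblast gene Dcn and 245 CPM of Cdh1.

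**Figure D4:**
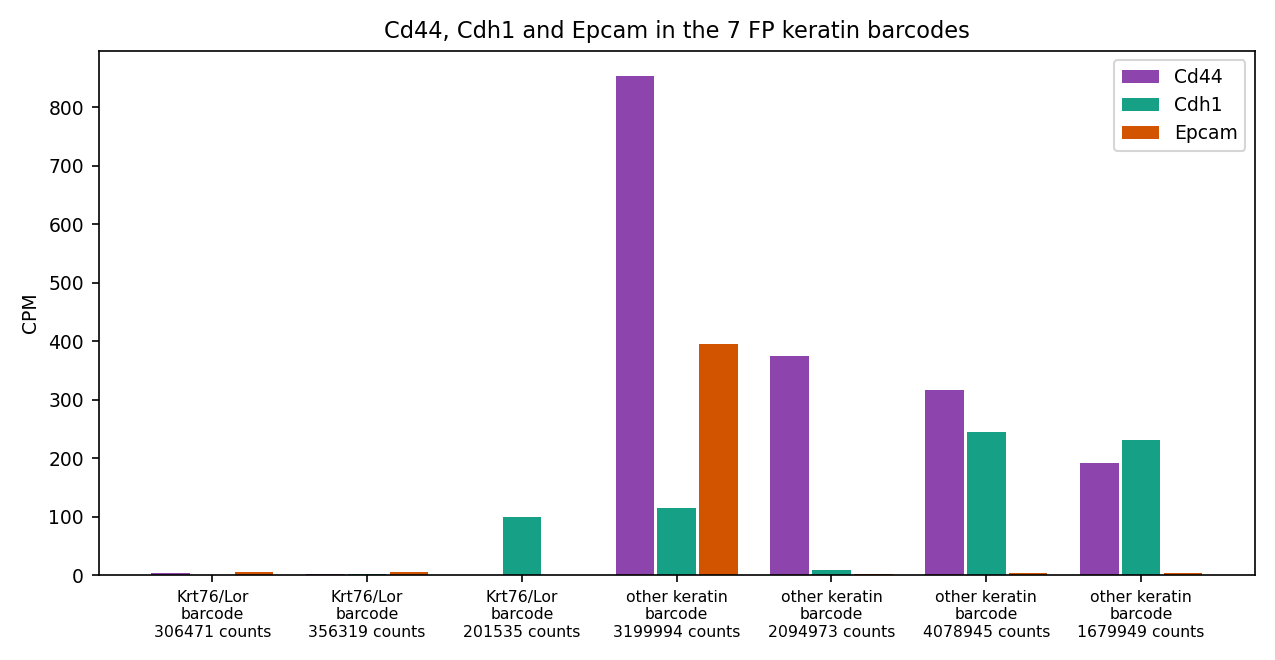
CPM of Cd44, Cdh1 and Epcam in the 7 FP keratin barcodes, with bars from 0 and the total counts of each barcode below it. The 3 barcodes on the left have Krt76 and Lor at 1000 CPM or more and Cd44 at 3.26 CPM or less; the other 4 have Cd44 at 192 CPM or more.

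Counted by a 2-fold size rule on log2(CPM + 10), among genes at 10 CPM or more in either group, 2 of the 6 genes were higher in FP than in CV taste cells, Cd44 (log2 ratio 3.43) and Cdh1 (1.29). Of all 10918 measured genes 17.0% were. Edil3 (-5.59) and Col4a4 (-4.32) were higher in CV, against 21.0% of genes, and Epcam (-0.45) and Cadm1 (0.36) lay within 2-fold. The median over all genes was -0.05. Averaging single-cell CPM instead of pooling put 25.5% of genes higher in FP cells and 19.5% higher in CV cells, at a median of 0.21, and medians of single-cell CPM gave 55.8% and 8.94%. Against keratin barcodes, 3 of 4 measured genes were higher in FP taste cells, Cdh1 (1.42), Epcam (2.91) and Cadm1 (1.60), against 48.4% of genes, and 0 were lower, against 18.0%. Cd44 lay within 2-fold at 0.45. CV taste cells were higher than keratin barcodes in 4 of 6 genes, Epcam (3.36), Cadm1 (1.24), Edil3 (5.72) and Col4a4 (4.33), against 51.0% of genes, and lower in Cd44 (-2.98), against 17.2%. The medians over all genes were 0.93 for FP and 1.02 for CV over keratin barcodes. With 4 and 6 genes measured, the counts of higher genes were too small to set apart from that background. With medians of single-cell CPM the split of genes was 44.4% higher and 36.9% lower for FP, and 31.1% and 56.3% for CV, over keratin barcodes.

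The share of cells that used a gene was read against the same background. Among genes at 10 CPM or more, 11.5% were on in at least 50% of FP taste cells, and Epcam, Cdh1 and Cd44 were among them of 4 measured. In CV 5.80% were, and Epcam was the only one of the 6. In keratin barcodes 15.4% were, and Cd44 and Cdh1 were among them of 3 measured.

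The counts for the companion lists below use the same 2-fold rule and are small. Of 42 such counts, 2 stayed within 1.5 times their value under each of 18 alternatives, so each is a description of these pooled levels.

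Partners of Cdh1 were present in all groups. Of the catenins that tie cadherins to actin, Ctnnb1 stood at 406 CPM in FP taste cells, 214 CPM in CV taste cells and 465 CPM in keratin barcodes, and Ctnna1 at 223, 315 and 133 CPM in the same order. Both lay within 2-fold between the papillae, while in CV taste cells relative to keratin barcodes Ctnna1 was higher (log2 ratio 1.18) and Ctnnb1 lower (-1.09). Of the 10 genes of the cadherin and catenin list, 1 was higher in FP than in CV taste cells, Cdh1, against 17.0% of all genes, and 0 were lower, against 21.0%. The median log2 ratio of the list was 0.32, against -0.05 over all genes. Relative to keratin barcodes 4 were higher in FP taste cells, against 48.4% of all genes, and 2 lower, against 18.0%, at a median of 0.56 against 0.93. One of those lower was Jup, the plakoglobin shared with desmosomes. Cdh2, N-cadherin, stood at 170 CPM in FP taste cells and 280 CPM in CV taste cells, against 0.671 CPM in keratin barcodes. It was on in 12 of 21 FP and 19 of 32 CV taste cells.

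Desmosomal genes, which rivet epithelial cells together, divided taste cells from keratin barcodes by isoform. Dsg2, the desmoglein of simple epithelia, stood at 377 CPM in FP taste cells, 141 CPM in CV taste cells and 1.76 CPM in keratin barcodes. Dsg1a, Dsg1b and Dsg3, desmogleins of stratified epithelia, stood at 1.37 CPM or less in FP and in CV taste cells, against 601, 396 and 197 CPM in keratin barcodes. Of 13 desmosomal genes, 2 were higher and 10 lower in FP taste cells than in keratin barcodes, against 48.4% and 18.0% of all genes, with a median log2 ratio of -2.70 against 0.93 over all genes. Set against only the 3 keratin barcodes with Krt76 and Lor, 5 were lower, against 8.84% of all genes. Perp, a desmosomal membrane protein, had 224 CPM in FP taste cells and 5192 CPM in keratin barcodes. Between papillae, 4 of 10 measured were higher in FP taste cells, Dsg2, Dsc2, Dsc3 and Ppl, and 1, Evpl, was lower, against 17.0% and 21.0% of all genes, at a median of 0.52. Dsg2 was on in all 13 FP cells with Cd44 on and in all 3 CV cells with Cd44 on, against 16 of all 21 FP and 11 of all 32 CV taste cells.

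Claudin-7, the partner of Epcam, was found in taste cells of both papillae and was near 0 in keratin barcodes. Cldn7 stood at 445 CPM in FP taste cells and 189 CPM in CV taste cells, against 1.43 CPM in keratin barcodes, and Cldn3, a tight junction claudin, at 306 and 214 CPM against 13.1 CPM. Cldn7 was on in 14 of the 17 Epcam cells of FP and 14 of the 22 of CV, against 16 of all 21 FP and 15 of all 32 CV taste cells. Of 16 measured genes of this list, 3 were higher and 3 lower in FP than in CV taste cells, which is near the 17.0% and 21.0% of all genes, at a median of -0.32. Cldn8 was among the lower, at 0.0442 CPM in FP and 57.8 CPM in CV taste cells. Relative to keratin barcodes 5 of 17 were higher in FP taste cells, against 48.4% of all genes, and 6 lower, against 18.0%, at a median log2 ratio of -0.29 against 0.93.

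Of the relatives of Cadm1 some were found in more cells than it and others in as few. Cadm4 was on in 13 of 21 FP and 11 of 32 CV taste cells and Nectin4 in 8 and 8, whereas Nectin1 was on in 2 and 2, Pvr in 1 and 2, Nectin3 in 1 and 2 and Cadm2, with 5 and 8 counts, in 0 and 0. Cadm4 stood at 223 CPM in FP taste cells, 169 CPM in CV taste cells and 250 CPM in keratin barcodes. Nectin3, a known binding partner of Cadm1, stood at 3.18, 3.66 and 0 CPM, and Crtam, another, was not listed. Nectin4 stood at 122 CPM in FP taste cells, 121 CPM in CV taste cells and 630 CPM in keratin barcodes. Of 10 measured genes of the family list, 1 was higher in FP than in CV taste cells, Nectin1, and 1 was lower, Mpp3, against 17.0% and 21.0% of all genes, at a median of 0.08. Relative to keratin barcodes 3 of 9 were higher in FP taste cells and 2 lower, against 48.4% and 18.0%, at a median of -0.16 against 0.93.

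Cd44 was the only gene of the hyaluronan list that was higher in FP than in CV taste cells, and 4 of the 10 measured were lower, against 17.0% and 21.0% of all genes, at a median log2 ratio of -0.20. Ezr, which encodes ezrin, a linker of the Cd44 tail to actin, stood at 232 CPM in FP taste cells, 168 CPM in CV taste cells and 239 CPM in keratin barcodes. Rdx, radixin, stood at 31.1, 74.4 and 169 CPM, and Msn, moesin, at 0, 31.8 and 0 CPM. The hyaluronan synthases Has1, Has2 and Has3 were at 6.47 CPM or less in each group. Esrp1, a splicing factor known to act on Cd44 transcripts, stood at 61.7 CPM in FP and 56.5 CPM in CV taste cells, against 189 CPM in keratin barcodes. The tables count whole genes, and splice forms of Cd44 could not be told apart.

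The usual partners of Col4a4 were near 0 or low in pooled level. Col4a3, which starts beside Col4a4 on chromosome 1 and is read the other way, stood at 0.132 CPM in FP taste cells, 0.0677 CPM in CV taste cells and 0.0839 CPM in keratin barcodes. Col4a3 spans chr1:82586921-82722059 on the plus strand, so the annotated ends of the pair overlap. Col4a5 stood at 0 CPM in FP taste cells, 6.60 CPM in CV taste cells and 0 CPM in keratin barcodes. It was on in 1 CV taste cell, at 179 CPM. Of other basement membrane genes, some were present in both papillae and others were near 0 in both. Col4a1, Lamc1, Nid1, Nid2, Col7a1 and Col17a1 stood at 1.77 CPM or less in FP and in CV taste cells, and Col4a2 had 0 counts. Lamb1, a laminin chain, stood at 70.5 CPM in FP taste cells, 245 CPM in CV taste cells and 1.34 CPM in keratin barcodes, and Npnt, nephronectin, at 91.7, 87.2 and 0.252 CPM. Of 9 measured, 1 was higher and 2, Col4a4 and Lamb1, were lower in FP than in CV taste cells, against 17.0% and 21.0% of all genes, at a median of 0.07. Relative to keratin barcodes 7 of 8 were higher in FP taste cells and 1, Col17a1, was lower, against 48.4% and 18.0%, at a median of 2.15 against 0.93.

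Of the integrin subunits that Edil3 is known to bind, Itgav and Itgb3 were near 0 in taste cells and Itgb5 was present. Itgav stood at 0.397 CPM in FP taste cells, 0.102 CPM in CV taste cells and 13.1 CPM in keratin barcodes, and Itgb3 at 0.0442, 0.0677 and 0 CPM. Itgb5 stood at 71.1, 25.7 and 98.6 CPM. The integrins at the highest CPM of the list in taste cells, Itga3 and Itgb1, laminin receptor subunits, had 259 and 255 CPM in FP taste cells and 327 and 293 CPM in CV taste cells, against 7.97 and 15.7 CPM in keratin barcodes. Of 9 measured, 2 were higher and 3 lower in FP than in CV taste cells, which is near the 17.0% and 21.0% of all genes, at a median of -0.20. Relative to keratin barcodes 5 of 8 were higher in FP taste cells and 1, Itgav, was lower, against 48.4% and 18.0%, at a median of 1.54 against 0.93.

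**Figure D5:**
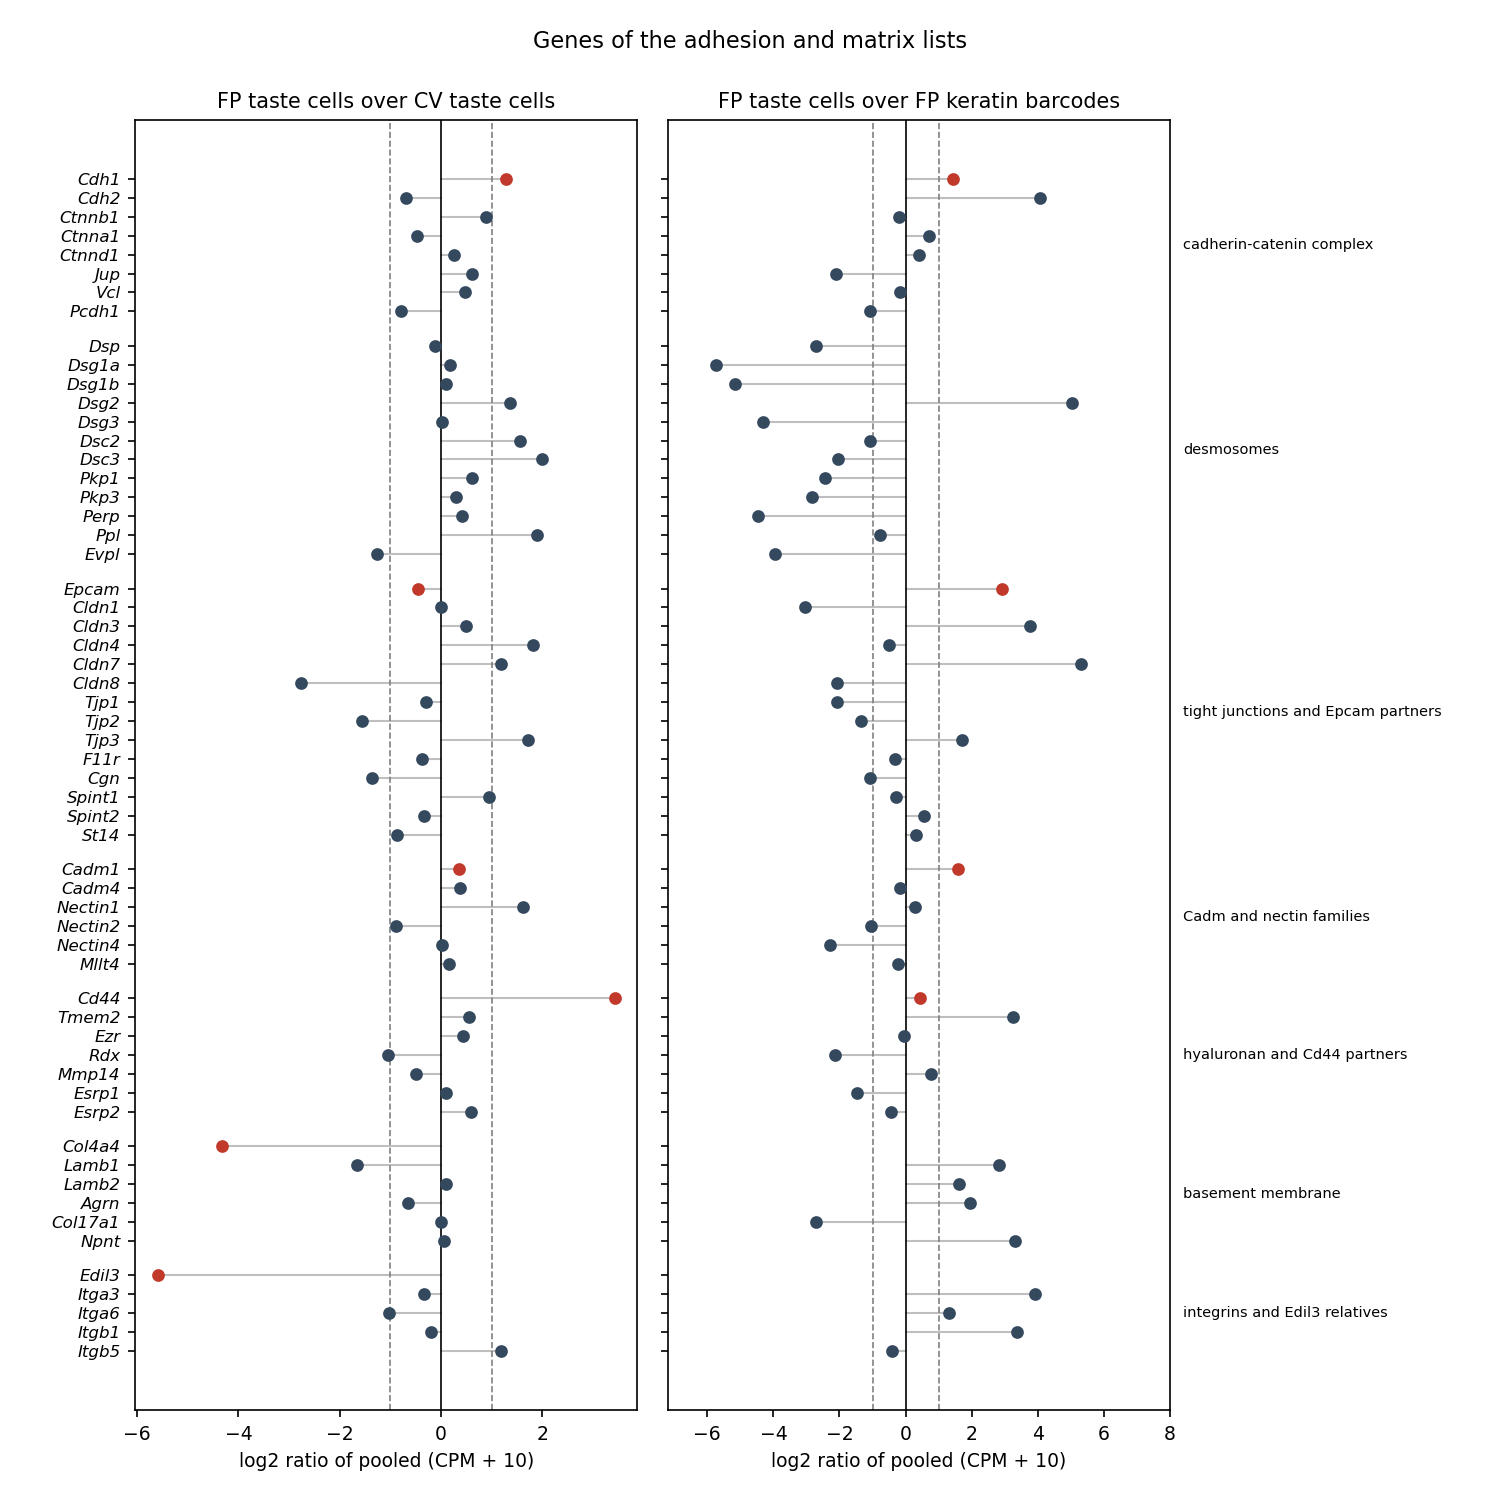
Log2 ratio of pooled CPM + 10 for genes of 7 adhesion and matrix lists at 50 CPM or more in at least 1 group and for the 6 genes described here, FP taste cells over CV taste cells on the left and over FP keratin barcodes on the right; those 6 are in red and dashed lines mark 2-fold. Ratios for genes under 10 CPM in both groups are left out of the right panel. Dsg2 and Cldn7 lie at 5.04 and 5.32 on the right, and Dsg1a at -5.75.

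For each gene, the 3 genes whose level over cells was most like it were taken in the papilla where it was higher, by Pearson's r of log2(CPM + 10) among 2123 to 2607 genes on in at least 25% of cells. Cd44 was most like Spcs1 (0.87), Gsk3b (0.82) and Epcam (0.81) over 21 FP taste cells, and these had 0.07, 0.34 and 0.20 over 32 CV taste cells. Cdh1 was most like Glyr1 (0.73), Asna1 (0.67) and Coprs (0.67) in FP, with 0.31, 0.51 and 0.45 in CV. Cadm1 was most like Rcc2 (0.74), Golgb1 (0.72) and Actl6a (0.69) in FP, with -0.13, 0.06 and 0.00 in CV, and rests on 3 cells. Epcam was most like Dynlt1b (0.90), Chchd2 (0.89) and Cox5b (0.87) in CV, with 0.71, 0.38 and 0.62 in FP. Edil3 was most like Fam49a (0.85), Col4a4 (0.84) and Ascc3 (0.82) in CV, and Col4a4 was most like Ascc3 (0.89), Txndc16 (0.86) and Cfap69 (0.84). No r is given for these over FP taste cells, where Edil3 had 23 counts in 3 cells and Col4a4 had 2 counts. Ascc3 stood at 0.0442 CPM in FP taste cells and 546 CPM in CV taste cells, and was on in 8 CV taste cells. The median r over all genes compared was 0.09 for Cadm1 to 0.43 for Epcam, and cells of 1 papilla share depth as well as library.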

How the data were processed

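Each papilla has a deposited table of raw counts, whole numbers for every gene in every barcode. Per the submitters' processing notes, build mm10 was used along with Seurat 2.3.4, Bowtie2 2.3.4.1 and cutadapt 2.10. The sources used here do not say whether molecular barcodes were collapsed. The series text states limits on genes, mitochondrial and ribosomal RNA and Gnat3, which can be read in several ways. Only the gene and Gnat3 limits were applied, with the natural logarithm. Mitochondrial counts thus reached 68.0% in FP and 88.6% in CV taste cells, and ribosomal RNA counts reached 1.47% and 79.0%. Doublets were not called among 90 barcodes. Hashtag libraries were not used here.

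Counts were summed over the cells of a group and given as CPM with exact Poisson 95% intervals, and ratios with the exact conditional binomial 95% interval. Log2 ratios used a pseudocount of 10 CPM, which understates the change of low genes. A gene in 1 table only was taken as 0 in the other. The calculations (Python 3.11.15, scipy 1.17.1) were tested on simulated data. The 6 genes, the groups, the level of 50 CPM and the 7 companion and 10 marker lists were chosen with earlier results of these data known. List genes at 50 CPM or more in 1 group, the largest ratios of a list first, and defining partners were named; 1 list gene is not reported here and was left out of the lists. Genes named outside that rule (Has1, Has2, Has3, Pecam1, Tek, Dcn, Ascc3 and others) were chosen after their values were seen. Alternatives changed the cell limits, pooling, scaling, pseudocount, low-value filter and depth.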

Additional observations from a re-analysis of the deposited data

Results flagged for a closer look

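The 30 barcodes outside the 3 groups (1 FP and 29 CV) entered no comparison, yet some of them held 4 of the 6 genes at far more than the 3 counts that a count of 0 allows in a barcode. Cd44 was on in 1 of the 30, Cdh1 in 4, Epcam in 3 and Edil3 in 2. The highest Cd44 level among them was 611 CPM, from 2498 counts in a CV barcode of 4088415 counts, the deepest of the series. That barcode had 61 Gnat3 counts, Cdh1 at 344 CPM, Epcam at 867 CPM, Edil3 at 209 CPM and Tas1r3 at 632 CPM. The highest Cdh1 level was 3896 CPM, from 148 counts in a CV barcode of 37989. The highest Epcam level was 1149 CPM, from 100 counts in a CV barcode of 87000. The highest Edil3 level was 2411 CPM, from 405 counts in a CV barcode of 168001 whose counts were 81.5% mitochondrial. Cadm1 and Col4a4 were on in 0 of the 30.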

How the results depend on the processing

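The log2 ratios and the counts of the 6 genes higher or lower were recomputed under 18 alternatives, 14 planned and 4 added after the data were seen, and the shares of cells on under 5. The companion list counts (the same 18) and 2 counts of shared cells (the same 5) were recomputed after the data were seen; other counts of cells were not. The 2 genes higher in FP than in CV taste cells stayed 2 in all 18. With medians of single-cell CPM, 0 genes (2 when pooled) were higher in CV than in FP taste cells, 1 (4 when pooled) was higher in CV taste cells than in keratin barcodes, and 2 (1 when pooled) were higher in keratin barcodes than in CV taste cells. Genes on in few of the cells have medians near 0 by construction. With only the keratin barcodes that have Krt76 and Lor, 0 of the 6 genes were higher in keratin barcodes than in CV taste cells. The Cd44 log2 ratio for CV over keratin turned to 2.18, against -2.98 with all 7. The median over all genes was 1.98, against 1.02 with all 7. The cause of the Cd44 turn was not tested. Without the Gnat3 limit (22 FP and 55 CV cells) the Cd44 log2 ratio of FP over CV was 2.38. Thinned to 71770 counts, 14 of 21 FP and 3 of 26 CV taste cells had Cd44 on, and 0 of 21 and 12 of 26 had Edil3 on. In each of the 5, every FP taste cell with Cd44 on had Epcam on (13 to 17 cells), and 6 to 16 CV taste cells had both Edil3 and Col4a4 on. Of 42 companion list counts 2 stayed within 1.5 times. The 10 desmosomal genes lower in FP taste cells than in keratin barcodes were 5 with only the keratin barcodes that have Krt76 and Lor. There 8.84% of all genes were lower, against 18.0% with all 7. Under the other alternatives the desmosomal count was 9 to 11. Leaving out taste cells with Krt13 plus Krt6a at 10 CPM or more was not run, as 0 FP cells remained. No paired analysis was possible because each papilla has 1 library, and no library could be left out. Depth limits the shallow CV taste cells, where 2 Cdh1 counts in a barcode of 32726 made 61.1 CPM.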
